A study of Mus musculus with 6 samples.

Results

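The MYC, MAX and MXD network was followed through 10 genes in leukemia stem cells (LSCs) with and without *Piezo1*. They are the 3 MYC paralogs *Myc*, *Mycn* and *Mycl*, their shared partner *Max*, the 5 MAX-binding antagonists *Mxd1*, *Mxd3*, *Mxd4*, *Mxi1* and *Mnt*, and *Mlx*, the MAX-like partner of a parallel branch. They were chosen by symbol for their place in the network. All 10 are among the 55367 genes listed in the deposited table, and all 10 are among the 16746 genes tested.

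MYC proteins are basic helix-loop-helix leucine zipper transcription factors that bind DNA as dimers with MAX, mainly at the E-box CACGTG, and raise the transcription of genes for ribosome assembly, translation, nucleotide synthesis and cell cycle entry. MXD proteins, MXI1 and MNT compete for MAX, bind the same sites and recruit SIN3 corepressors, so that the balance between the arms sets the output of shared targets. MLX pairs with MXD1, MXD4 and MNT and with the glucose-sensing factors MLXIP (MondoA) and MLXIPL (ChREBP). *Myc* is the paralog that most myeloid progenitors and acute myeloid leukemias (AML) rely on, *Mycn* is known from stem cells and neural tissue, and *Mycl* from dendritic cells.

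The libraries came from mice with MLL-AF9 driven AML, made by transplanting retrovirally transduced lineage-negative marrow cells, and LSCs were sorted from the bone marrow. An age of 8 to 10 weeks is given, in the labels for these mice and in the methods for the mice when pIpC was injected, so the age at the sort is not certain. The marrow donors of the Piezo1cKO group (3 libraries) carried *Mx1-cre* and floxed *Piezo1* alleles (Piezo1 fl/fl) and had received pIpC. The pIpC switches on the interferon-responsive *Mx1* promoter in blood cells and other tissues. The marrow donors of the WT group (3 libraries) were Piezo1 fl/fl littermates given the same pIpC but without Cre. An effect of Cre itself and of the deletion therefore cannot be told apart. PolyA RNA was made into Smart-seq2 based libraries and sequenced as paired ends. The labels do not say that each library is another mouse, so p-values measure only the spread between these libraries, which may be technical.

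The deposited log2 values have been pulled towards each gene's mean, which makes differences smaller, most of all at low read numbers. The pull could be undone to give back reads, 14112092 to 15483578 per library on genes, and the values below are normalized recovered reads (reads divided by the library's size factor) unless a deposited log2 value is named. *Piezo1*, the ion channel gene that was deleted, had 101, 92.8 and 109 normalized reads in WT replicates 1 to 3 and 36.6, 56.5 and 45.8 in the Piezo1cKO replicates. The groups did not overlap, and the Piezo1cKO mean was 45.9% of the WT mean (deposited log2 fold change -0.29, adjusted p = 5.8e-06, limma). The reads cover the whole gene, so reads on deleted exons were not separated from the rest.

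The sequence that links the members is the E-box, and 4 of the 9 member genes with a RefSeq promoter entry (GRCm38.p6, 250 bases before to 50 bases after a start) hold CACGTG there, in 4 of their 11 promoters. Of all 32851 promoters of that length, 2349 hold it (7.2%). The motif reads the same on both strands. The windows below show it in capitals, 5′ to 3′ on the strand of the gene, because these are promoters where a MAX dimer could in principle meet another member's gene.
Max: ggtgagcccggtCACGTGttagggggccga
Mlx: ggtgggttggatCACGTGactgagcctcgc
Mnt: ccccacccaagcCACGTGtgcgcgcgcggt
Mxd4: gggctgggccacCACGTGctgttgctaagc
The *Max* window lies at chr12:76962234-76962263 on the minus strand, and its E-box begins 3 bases before the start. The *Mlx* window, chr11:101087238-101087267 on the plus strand, has the E-box 40 bases before the start. In *Mnt* (chr11:74830789-74830818, plus strand) the E-box begins 123 bases before the start, and in *Mxd4* (chr5:34187912-34187941, minus strand) 219 bases before it. A match is no evidence of binding, and no binding was measured here. Of these 4 genes, *Mlx* and *Mxd4* were lower in Piezo1cKO LSCs and *Max* and *Mnt* did not pass the test, as described next.

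Of the 10 members, 6 were lower and 1 was higher in Piezo1cKO LSCs than in WT LSCs at an adjusted p under 0.05 (limma on the deposited values, with Benjamini-Hochberg adjustment over all genes tested). *Mlx*, *Mxi1*, *Mycn*, *Myc*, *Mxd4* and *Mxd1* fell and *Mycl* rose, while *Max*, *Mnt* and *Mxd3* did not pass. Over all genes tested, 31.4% were lower and 31.6% higher, so that a call by itself is common in this comparison. The median deposited log2 fold change was -0.16 over the 10 members and 0.00 over all genes. In 7 members the groups did not overlap, against 66.6% of all genes.

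None of the members passed the DEG thresholds (a log2 fold change beyond 1 in either direction with an adjusted p under 0.05) on the deposited scale, where 0.818% of all genes did. At an unadjusted p under 0.05, the same 7 members passed. When limma-voom was run on the recovered reads of 17352 genes, *Mycl* was a higher DEG, with 12.5% of all genes, and *Mycn* a lower DEG, with 12.3% of all genes. All 10 members had the 10 reads in total that this fit asks for, *Mycn* through its WT reads alone.

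**Figure D1:**
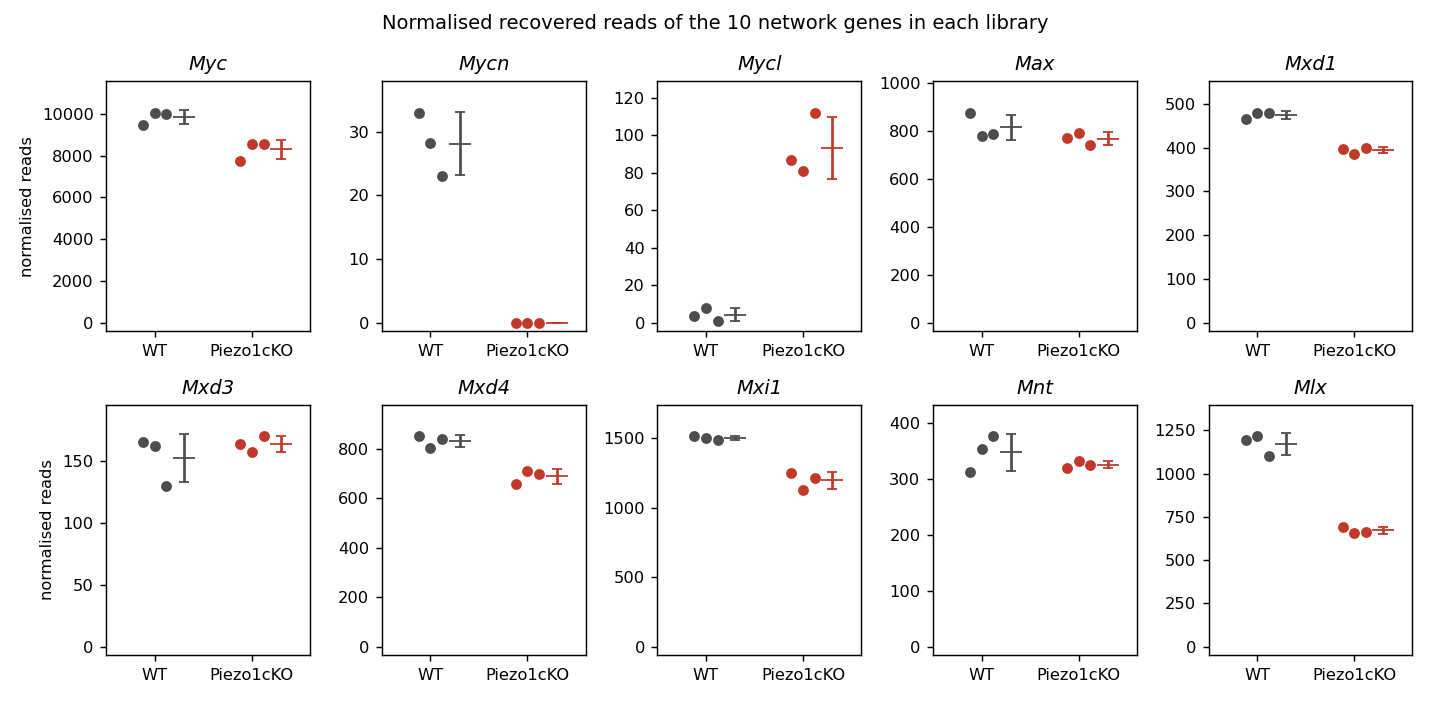
Normalized recovered reads (vertical axes, linear and from 0, one scale per gene) of the 10 network genes in each WT (grey) and Piezo1cKO (red) library, with the mean and SD of 3 libraries beside the points. *Mycn* is at 0 in all Piezo1cKO libraries, *Mycl* lies between 80.9 and 112 there, *Mlx* falls to 57.3% of WT, and the groups of *Max*, *Mxd3* and *Mnt* overlap.

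*Myc* (chromosome 15, 61985391 to 61990374, GRCm38), the paralog that carries nearly all MYC-coding RNA in these cells, had 9471, 10062 and 9988 normalized reads in WT replicates 1 to 3 and 7763, 8569 and 8567 in the Piezo1cKO replicates. Every Piezo1cKO library lay below every WT library, and the mean fell from 9840 ± 322 (SD, n = 3) to 8299 ± 465, 84.3% of WT. The deposited log2 fold change was -0.18 (standard error 0.03, adjusted p = 1.23e-05, limma), and on recovered reads it was -0.26 (95% interval -0.34 to -0.18). The fall was therefore small but larger than the spread between replicates.

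*Mycn* (chromosome 12, 12936093 to 12941914) was at the bottom of the measured range. It had 34, 28 and 24 recovered reads in WT replicates 1 to 3 and 0 in each Piezo1cKO library. Against a floor of 3 reads per library, its normalized reads were at least 9.26-fold lower in Piezo1cKO LSCs. The floor covers counting error only, since the reads carry no molecular identifiers. On the deposited scale, where low genes are pulled hardest, the log2 fold change was -0.21 (standard error 0.02, adjusted p = 3.91e-07, limma).

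The genes on either side of *Mycn* were looked up after the values were seen, and both were detected in all libraries. *Ddx1*, an RNA helicase gene 275059 bases away, had 3728 normalized reads in WT and 3460 in Piezo1cKO LSCs (deposited log2 fold change -0.08, adjusted p = 0.0173, limma), a call lost without WT replicate 1 (0.0928), Piezo1cKO replicate 2 (0.0547) or Piezo1cKO replicate 3 (0.0612). *Fam49a*, 555128 bases away on the other side, rose from 58.9 to 171 (log2 fold change 0.51, adjusted p = 2.84e-09, limma).

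*Mycl* (chromosome 4, 122995652 to 123002485) went the other way. It had 4, 8 and 1 recovered reads in WT replicates 1 to 3 and 83, 83 and 110 in the Piezo1cKO replicates, so the groups lay far apart. Scaled for library size, 276 reads against 13 are a ratio of 21.9 (95% exact interval 12.6 to 41.7, for counting error only). *Mycl* had the largest deposited log2 fold change of the members, 0.59 (standard error 0.04, adjusted p = 3.87e-10, limma), and on recovered reads it was 4.61 (95% interval 3.56 to 5.66).

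Around *Mycl*, also looked up after the values were seen, *Trit1*, a tRNA-modifying enzyme gene 14112 bases downstream, rose from 128 to 176 normalized reads (deposited log2 fold change 0.18, adjusted p = 3.08e-04, limma). *Mfsd2a*, a lipid transporter gene 34464 bases upstream, had 8, 6 and 2 recovered reads in WT and 0, 3 and 0 in Piezo1cKO libraries. The dendritic cell markers, the cell type *Mycl* is best known from, moved as well. Of 7 tested, 6 were higher and 1 lower, where 31.6% of all genes were higher and 31.4% lower. Their summed normalized reads ran from 835 to 896 in WT and from 1808 to 1838 in Piezo1cKO libraries. Most of that sum was *Flt3*, a growth factor receptor gene shared with early progenitors (620 to 662 in WT, 1567 to 1653 in Piezo1cKO libraries). *Zbtb46*, a defining transcription factor, was the 1 that fell, from between 178 and 188 in WT to between 68.9 and 85.8 in Piezo1cKO libraries, and *Itgax*, another defining marker below the filter on deposited values, was at 0 in WT and between 2.04 and 5.85 in Piezo1cKO libraries. Their part in the *Mycl* result was not tested. In bulk RNA, more cells of a type and more RNA per cell cannot be told apart.

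*Max* (chromosome 12, 76937269 to 76962201), the obligate partner of the MYC proteins, had 876, 780 and 787 normalized reads in WT replicates 1 to 3 and 771, 791 and 739 in the Piezo1cKO replicates. The groups overlapped, with means of 814 ± 53.6 and 767 ± 26.2 (SD, n = 3 each). Its deposited log2 fold change was -0.05 (95% interval -0.13 to 0.02, adjusted p = 0.197, limma), so a fall of more than 0.13 on that scale lies outside the interval. On recovered reads, without the pull, it was -0.10, with a wider 95% interval of -0.22 to 0.02.

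Among the antagonists, *Mxi1* (chromosome 19, 53310518 to 53375810) was the most abundant. It had 1514, 1502 and 1485 normalized reads in WT replicates 1 to 3 and 1251, 1128 and 1210 in the Piezo1cKO replicates. The Piezo1cKO mean was 79.7% of the WT mean (deposited log2 fold change -0.22, standard error 0.03, adjusted p = 8.86e-06, limma), and the groups did not overlap.

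*Mxd4* (chromosome 5, 34173883 to 34187720), a repressor known from differentiating and resting cells, had 851, 805 and 838 normalized reads in WT and 656, 711 and 699 in Piezo1cKO libraries. *Mxd1* (chromosome 6, 86647042 to 86669161), the founding MXD gene, which rises as myeloid cells mature, had 465, 480 and 479 in WT and 396, 386 and 399 in Piezo1cKO libraries. Neither gene's groups overlapped. *Mxd4* fell to 82.8% of WT (deposited log2 fold change -0.17, adjusted p = 2.39e-04, limma) and *Mxd1* to 82.9% (-0.15, adjusted p = 7.56e-04, limma).

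*Mnt* (chromosome 11, 74830920 to 74845725), the antagonist that is expressed in most cells whether they divide or not, had 312, 353 and 376 normalized reads in WT and 320, 332 and 324 in Piezo1cKO libraries. All Piezo1cKO values lay inside the WT range. *Mxd3* (chromosome 13, 55325168 to 55329823), the MXD gene most tied to S phase, had 165, 162 and 130 in WT and 164, 157 and 170 in Piezo1cKO libraries, and its groups also overlapped. The deposited log2 fold changes were -0.05 for *Mnt* (95% interval -0.13 to 0.04, adjusted p = 0.3, limma) and 0.04 for *Mxd3* (95% interval -0.05 to 0.13, adjusted p = 0.387, limma). On recovered reads the 95% intervals were wider, -0.27 to 0.06 for *Mnt* and -0.13 to 0.33 for *Mxd3*. The sign for *Mxd3* rests on WT replicate 3, and without that library its deposited log2 fold change was -0.0006.

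*Mlx* (chromosome 11, 101087277 to 101092207) showed the largest fall among the abundant members. It had 1196, 1216 and 1100 normalized reads in WT replicates 1 to 3 and 694, 659 and 661 in the Piezo1cKO replicates, so that the groups lay well apart. The mean went from 1171 ± 62.3 (SD, n = 3) to 671 ± 19.4, 57.3% of WT. The deposited log2 fold change was -0.52 (standard error 0.03, adjusted p = 3.04e-10, limma), and on recovered reads it was -0.81 (95% interval -0.93 to -0.70). Exons of *Mlx* share 385 bases with *Psmc3ip* on the other strand, and reads from the overlap cannot be assigned by strand in these libraries. *Psmc3ip* itself had 867 normalized reads in WT and 836 in Piezo1cKO LSCs (log2 fold change -0.03, adjusted p = 0.379, limma). *Mxd3* shares 105 exonic bases in this way with *Prelid1*, which did not pass the test either (log2 fold change 0.06, adjusted p = 0.243, limma, and 0.0496 without WT replicate 3), and the partners of *Mxd4* and *Mxi1*, *Gm42846* and *Gm10197*, are listed at 0 in all 6 libraries.

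**Figure D2:**
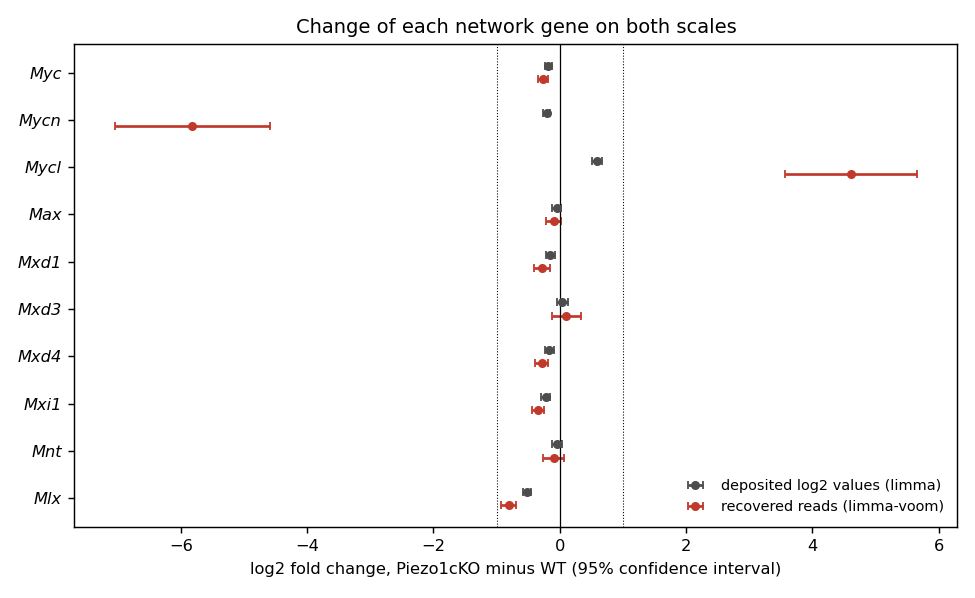
Log2 fold change (horizontal axis, Piezo1cKO minus WT) of each network gene with its 95% confidence interval, from the deposited log2 values (grey, limma) and from recovered reads (red, limma-voom), with dotted lines at the DEG fold threshold. On recovered reads *Mycl* at 4.61 and *Mycn* lie beyond the lines, while on the deposited scale no gene does. The fitted value of *Mycn* depends on how a group at 0 is handled and is not a bound.

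To compare members with each other, recovered reads were expressed per kilobase of transcript and for a common library size (RPKM), with the mean length of each gene's annotated transcripts. In WT LSCs the order was *Myc* at 390 ± 13.6 RPKM (SD, n = 3), *Mlx* at 69.6 ± 3.69, *Max* at 57.2 ± 3.63, *Mxi1* at 53.2 ± 0.427, *Mxd4* at 21.4 ± 0.561, *Mxd1* at 14.8 ± 0.304, *Mnt* at 11.7 ± 1.11, *Mxd3* at 8.1 ± 1.03, *Mycn* at 0.962 ± 0.168 and *Mycl* at 0.168 ± 0.14. No neighbours in this order had overlapping libraries. In Piezo1cKO LSCs *Mlx*, at 40.4 ± 1.12 RPKM, stood below *Max* at 54.6 ± 1.85 and beside *Mxi1* at 43 ± 2.22, whose libraries overlapped those of *Mlx*. *Mycl*, at 3.69 ± 0.655 RPKM, stood above *Mycn*. The order depends in part on the length chosen. With the longest transcript, *Mnt* and *Mxd3* changed places in WT LSCs. In Piezo1cKO LSCs *Mlx* and *Mxi1* did so, and *Mxd3* moved above both *Mxd1* and *Mnt*.

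Most of the paralog RNA was *Myc* in every library. Its share of the summed RPKM of the 3 paralogs was 99.66%, 99.68% and 99.79% in WT replicates 1 to 3 and 98.91%, 99.08% and 98.73% in the Piezo1cKO replicates. The difference was taken up by *Mycl*, at 0.04%, 0.08% and 0.01% in WT and 1.09%, 0.92% and 1.27% in Piezo1cKO libraries. The rise of *Mycl*, although large as a ratio, was thus small beside the level of *Myc*.

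Sums over the arms were lower in every Piezo1cKO library than in every WT library. The summed RPKM of the paralogs was 375, 400 and 397 in WT and 314, 347 and 348 in Piezo1cKO libraries. The summed RPKM of the 5 antagonists was 109, 110 and 109 in WT and 94.1, 91.0 and 94.4 in Piezo1cKO libraries. Their ratio, 3.44, 3.65 and 3.65 in WT and 3.34, 3.81 and 3.69 in Piezo1cKO libraries, overlapped between the groups. The ratio of the paralogs to *Max* also overlapped, at 6.11, 7.29 and 7.16 in WT and 5.73, 6.16 and 6.61 in Piezo1cKO libraries.

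**Figure D3:**
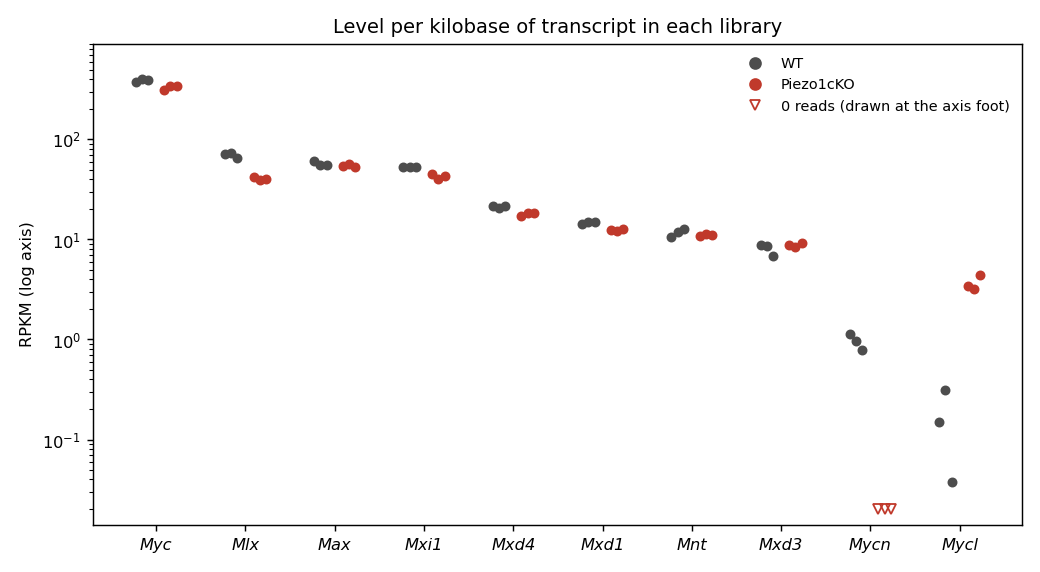
Level of each member in each library as RPKM (vertical log axis), ordered by the WT mean, with WT in grey and Piezo1cKO in red. *Myc* stands at 390 RPKM in WT, above all other members, and *Mycl* rises to 3.69 RPKM in Piezo1cKO LSCs. Open triangles at the foot of the axis are libraries with 0 reads of *Mycn*.

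The genes whose profile over the 6 libraries lay nearest to that of *Myc* (smallest Euclidean distance of the deposited values, centred on each gene's mean) were *Pola2*, a subunit of DNA polymerase alpha (distance 0.023, log2 fold change -0.18), *Eif6*, a ribosome assembly factor (distance 0.030, -0.20), and *Fbxl14*, an F-box gene (distance 0.032, -0.20). Nearest to *Mycl* were *Gimap9*, a small GTPase gene of lymphoid cells (distance 0.080, log2 fold change 0.61), *Gm45606* (distance 0.081, 0.55) and *Hpse2*, a heparanase relative (distance 0.085, 0.62).

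The wider network was read from 6 further genes, of which 2 were lower, 2 higher and 2 did not pass. These shares were near the 31.4% lower and 31.6% higher of all genes. Both glucose-sensing partners of MLX were lower. *Mlxipl*, which codes for ChREBP, had 38, 34 and 53 recovered reads in WT and 7, 3 and 6 in Piezo1cKO libraries, a ratio of 0.132 with an exact interval of 0.0732 to 0.223 for counting error (deposited log2 fold change -0.25, adjusted p = 1.57e-06, limma). *Mlxip*, which codes for MondoA, had 298, 308 and 301 normalized reads in WT and 255, 233 and 264 in Piezo1cKO libraries (-0.14, adjusted p = 0.0039, limma). With *Mlx*, all 3 genes of the branch were therefore lower.

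*Usf1*, an E-box factor outside the MAX dimers, rose from 934 to 1290 normalized reads (log2 fold change 0.31, adjusted p = 4.24e-07, limma), while its relative *Usf2* (90.8 and 95.8, adjusted p = 0.685, limma) and *Mga*, a large MAX partner with a T-box (506 and 531, adjusted p = 0.378, limma), did not pass. *Pvt1*, the noncoding neighbour of *Myc*, had 14, 17 and 13 recovered reads in WT and 25, 39 and 18 in Piezo1cKO libraries (log2 fold change 0.09, adjusted p = 0.0213, limma). Its call was lost without WT replicate 1 (adjusted p = 0.0701), WT replicate 3 (0.0806) or Piezo1cKO replicate 2 (0.139), in limma fits of the deposited values.

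Of the 4 classic targets of MondoA and ChREBP, 3 were lower and none higher, where 31.4% of all genes tested were lower and 31.6% higher. *Txnip*, which restrains glucose uptake, had 226, 237 and 264 normalized reads in WT and 119, 135 and 94.6 in Piezo1cKO libraries. *Arrdc3*, its arrestin relative, had 221, 251 and 261 in WT and 110, 108 and 97.7 in Piezo1cKO libraries. The groups of both lay apart, with deposited log2 fold changes of -0.45 (adjusted p = 1.58e-07, limma) and -0.50 (adjusted p = 4.91e-09, limma). *Pklr*, a pyruvate kinase gene with 27 recovered reads in all WT libraries and 2 in all Piezo1cKO libraries, was also called lower, with a ratio of 0.0764 (exact interval 0.00881 to 0.304). *Arrdc4* had 266 and 261 normalized reads and did not pass (adjusted p = 0.752, limma). A link between the falls of the branch and those of these targets was not tested.

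Cofactors that work with MYC on chromatin moved in both directions, and the median of their log2 fold changes was 0.02. Of 18, 7 were higher (38.9%, against 31.6% of all genes) and 4 lower (22.2%, against 31.4%), near those shares. *Trrap*, the scaffold of histone acetyltransferase complexes, rose from 1577 to 2307 normalized reads (0.38, adjusted p = 1.48e-09, limma), and the acetyltransferases *Crebbp* (0.18) and *Kat2a* (0.16) rose with it. *Wdr5*, which anchors MYC to chromatin, fell from 1176 to 916 (-0.24, adjusted p = 4.46e-06, limma), as did the remodeler *Ep400* (-0.17) and *Zbtb17* (-0.16), the MIZ1 factor through which MYC represses.

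Of 18 genes that set the stability of MYC protein, 4 were higher and 7 lower, and the median of their log2 fold changes was -0.05. These shares, 22.2% and 38.9%, were near the 31.6% higher and 31.4% lower of all genes. *Trib3*, a pseudokinase that also answers to the amino acid stress factor ATF4, fell from 1503, 1579 and 1586 normalized reads to 14.6, 11.7 and 26.5 (log2 fold change -3.17, adjusted p = 3.67e-20, limma). *Fbxo28*, a ubiquitin ligase subunit that acts on MYC, fell from 360 to 221 (-0.36, adjusted p = 2.75e-07, limma), and *Usp36*, a nucleolar deubiquitinase that protects it, from 327 to 252 (-0.19). The ubiquitin ligases *Huwe1* (0.12) and *Stub1* (0.14) and *Ppp2r5a* (0.16), a subunit of the phosphatase PP2A, rose, although the call of *Stub1* was lost without WT replicate 1 (adjusted p = 0.112, limma), Piezo1cKO replicate 2 (0.0662) or Piezo1cKO replicate 3 (0.0976). No protein was measured here.

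The SIN3 and NCoR corepressors that MXD proteins and MNT recruit also split, with 5 of 18 higher, 6 lower and a median log2 fold change of 0.02. These shares, 27.8% and 33.3%, were near the 31.6% higher and 31.4% lower of all genes. *Suds3*, a SIN3 subunit, had 430, 451 and 449 normalized reads in WT and 72.1, 103 and 98.7 in Piezo1cKO libraries, the only one of these 18 past the DEG thresholds on the deposited scale (-1.08, adjusted p = 2.26e-13, limma). The histone deacetylase gene *Hdac2* fell from 1276 to 622 (-0.67) and *Ncor1* from 1165 to 890 (-0.26). *Arid4a* rose from 1082 to 1559 (0.36), *Arid4b* from 748 to 947 (0.22) and *Sin3b* from 887 to 1009 (0.12).

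Genes that MYC activates were mostly lower. Of the 69 tested, 51 were lower, 5 higher and 13 did not pass, 73.9% lower against 31.4% of all genes, and their median log2 fold change was -0.19 against 0.00 over all genes. The 4 that ATF4 also drives (*Shmt2*, *Mthfd2*, *Phgdh* and *Slc7a5*) were all lower. Among the other 65, 47 were lower and the median was -0.19. Leaving out so few genes could hardly change these values, so the part of ATF4 was not tested. The summed normalized reads of the 69 genes ran from 324195 to 327759 in WT and from 271543 to 274550 in Piezo1cKO libraries.

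The 3 largest falls were in *Mthfd2*, a mitochondrial one-carbon enzyme (2553 to 593 normalized reads, log2 fold change -1.43, adjusted p = 5.17e-17, limma), *E2f2*, a cell cycle transcription factor (1027 to 220, -1.33), and *Slc7a5*, the large neutral amino acid transporter (583 to 130, -1.13). The 3 largest rises were in *Ccnd1*, cyclin D1, which went from 78.6, 89.8 and 107 normalized reads in WT to 252, 276 and 278 in Piezo1cKO libraries (0.64, adjusted p = 2.94e-10, limma), in *Hk2*, a hexokinase (0.25), and in *Cdc25a*, a phosphatase of the cell cycle (0.23).

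By role, in classes assigned after the values were seen, 20 of 25 ribosome biogenesis genes were lower and none higher, with a median log2 fold change of -0.22. Over all genes tested, 31.4% were lower and 31.6% higher. Falls there were moderate, and the genes named here and in the next paragraph were picked after their values were seen. *Nolc1*, a nucleolar phosphoprotein, stood at 65.3% of WT, *Nop56*, a snoRNP core protein, at 74.9%, *Npm1*, nucleophosmin, at 80.0% and *Ncl*, nucleolin, at 89.9%, whereas *Fbl*, fibrillarin, was at 102% and did not pass (adjusted p = 0.575, limma).

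The other classes are small, and their counts stand beside 31.4% lower and 31.6% higher over all genes tested. All 4 translation initiation genes were lower, among them *Eif4a1*, a helicase, at 68.7% and *Eif4e*, the cap-binding protein, at 83.5% of WT. Of 14 genes of nucleotide, polyamine and one-carbon metabolism, 11 were lower and 1 higher. *Odc1*, the first enzyme of polyamine synthesis, had 626, 648 and 707 normalized reads in WT and 176, 158 and 168 in Piezo1cKO libraries (log2 fold change -1.08, adjusted p = 3.41e-14, limma). Of 6 mitochondrial and chaperone genes 5 were lower, such as *Hspd1* at 73.2% of WT. Of 5 glucose genes 3 were lower and 1 higher, with *Eno1* at 79.0% and *Ldha* at 93.7% of WT. Cell cycle entry genes were divided, 4 of 7 lower (57.1%) and 2 higher (28.6%). Cyclin genes went both ways, *Ccnd2* at 41.8% and *Ccnd1* at 293% of WT.

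**Figure D4:**
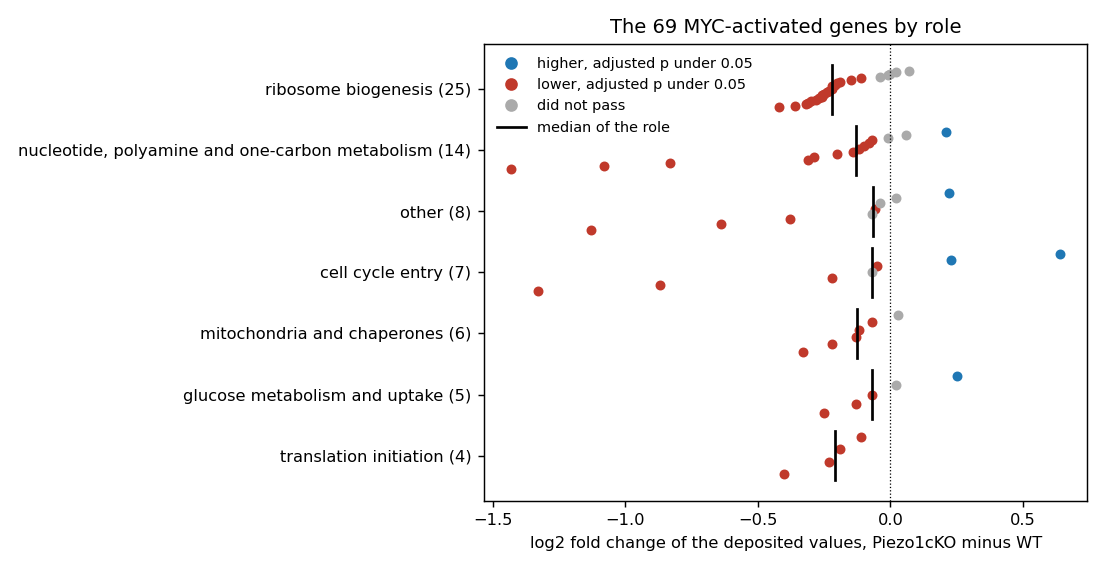
Log2 fold change of the deposited values (horizontal axis, Piezo1cKO minus WT) of the 69 MYC-activated genes, 1 point per gene, by role (vertical axis, with the number of genes), red for lower, blue for higher and grey for genes that did not pass. Black lines are role medians, -0.22 for ribosome biogenesis, and the farthest points are *Mthfd2* at -1.43 and *Ccnd1* at 0.64.

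Genes that MYC is known to repress showed no common direction. Of 19 tested, 6 were higher and 6 lower, and the median of their log2 fold changes was 0.00. Each share was 31.6%, as near as can be to the 31.6% higher and 31.4% lower of all genes. *Pdgfrb*, a growth factor receptor gene, had 83.4, 85.8 and 76.0 normalized reads in WT and 413, 464 and 417 in Piezo1cKO libraries (1.11, adjusted p = 3.21e-14, limma), and *Cdkn1b*, the p27 inhibitor of cyclin-dependent kinases, rose from 2094 to 3697 (0.58). *Cebpa*, a myeloid lineage factor, rose from 122 to 282 (0.53). *Cdkn2c*, the p18 inhibitor, fell from 2310 to 480 (-1.52, adjusted p = 8.94e-17, limma), *Gadd45a*, a stress gene, from 327 to 108 (-0.71) and *Klf6*, a zinc finger factor, from 866 to 549 (-0.41). These genes were ranked on the deposited scale. On recovered reads the falls of *Thbs1* (36.0 to 0.325, -5.62) and *Cdkn1c* (52.9 to 8.15, -2.80), both with few reads, were larger. The rise of *Ndrg2* (73.3 to 181, 1.31) was larger there than that of *Cebpa* (1.19).

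Markers of dividing cells were also mostly lower, though not all. Of 15 tested, 10 were lower, 3 higher and 2 did not pass, where 31.4% of all genes tested were lower and 31.6% higher. The median log2 fold change of the markers was -0.12, against 0.00 over all genes. Their summed normalized reads ran from 62407 to 63317 in WT and from 53403 to 54658 in Piezo1cKO libraries. *Top2a* (-0.42), *Rrm2* (-0.41) and *Bub1* (-0.39) fell, and *Ccnb2* (0.24), *Cenpf* (0.13) and *Tyms* (0.06) rose. The call of *Tyms* was lost without any of WT replicate 1 (adjusted p = 0.107, limma), WT replicate 3 (0.0889), Piezo1cKO replicate 1 (0.082) or Piezo1cKO replicate 2 (0.12), with no filter (0.0572) and on recovered reads (0.0703). Their part in the falls of *Myc* and its targets was not tested.

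Markers of the sorted population and of other cell types also differed between the groups. Their counts stand beside 31.6% higher and 31.4% lower over all genes tested. The LSC genes *Kit*, *Cd34*, *Fcgr3*, *Hoxa9* and *Meis1* were present in all libraries, and *Ly6a*, which codes for the Sca-1 that the gate leaves out, was at most 1.01 normalized reads in WT and between 7.12 and 16.6 in Piezo1cKO libraries. Of the 10 genes of the LSC and gate list, 4 were higher (*Cd34*, *Kit*, *Pbx3* and *Ly6a* itself) and 3 lower (*Fcgr2b*, *Meis1* and *Myb*). Mast cell and basophil markers were higher in 7 of 8 (sums of 5012 to 5260 in WT and 15861 to 15994 in Piezo1cKO libraries). B cell markers were higher in 4 of 5 tested (12225 to 12590 and 22364 to 22747), nearly all of it *Ighm* and *Cd79b*, with *Ms4a1* at most at 1.01 in WT and at 0 in Piezo1cKO libraries. Neutrophil markers were lower in 5 and higher in 1 of 7 tested (2509 to 2532 and 909 to 956), with *Retnlg* at 0 in all libraries. Most of the Piezo1cKO sum was *Mmp8*, the 1 that rose (37.8 to 47.1 in WT, 623 to 651 in Piezo1cKO libraries). Those that fell did so more than the sum shows, such as *Ngp* (1243 to 1307 and 127 to 151) and *S100a9* (254 to 276 and 4.07 to 8.36). Macrophage markers were higher in 4 and lower in 1 of 8 tested (11579 to 11986 and 12364 to 12641), with *C1qa* at 0 in all libraries. *C1qc* and *Mrc1* were at 0 in WT and at 15.3 to 28.3 and 6.82 to 17.3 in Piezo1cKO libraries. *C1qb* was at most 2.02 in WT and at 6.27 to 16.6 in Piezo1cKO libraries. Of the more abundant ones, *Cd68* rose (3650 to 3755 and 4461 to 4681) and *Cx3cr1* fell (360 to 371 and 286 to 305). *Adgre1*, *Csf1r* and *Ly6c2* did not pass. T and NK cell markers summed to 7.70 to 15.5 in WT and 51.2 to 66.1 in Piezo1cKO libraries (2 higher and 1 lower of 3 tested). Most of the Piezo1cKO sum was *Klrb1c*, at 0 in WT and 33.4 to 52.9 in Piezo1cKO libraries, and *Trac*, at 1.92 to 4.85 and 13.2 to 17.8, with *Cd8a* at 0 in all libraries. The CD3 genes went the other way. *Cd3d*, the 1 called lower, was at 3.85 to 6.79 in WT and 0 to 1.95 in Piezo1cKO libraries. *Cd3g* was at 1.92 to 2.91 in WT, *Cd3e* at most at 0.970 and *Cd4* at most at 2.02, and all 3 were at 0 in Piezo1cKO libraries. Erythroid markers (177 to 223 and 107 to 127, 2 of 5 tested lower) and megakaryocyte markers (336 to 394 and 268 to 303, 2 higher and 3 lower of 5 tested) stayed low. The part of these differences in the results of the network was not tested.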

How the data were processed

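Libraries were grouped by their labels (3 WT, 3 Piezo1cKO). Per the labels and the methods, the authors used fastp 0.20.1, HISAT2 2.2.1 on GRCm38, featureCounts 2.0.1 and DESeq2 1.28.1. The annotation and strand setting are not given in the sources used here. The deposited table holds log2 values in the form of a regularized log, and 28965 of its 55367 genes are at 0 throughout. The design had allowed for counts or other units, so the test for log2 values was used, with no pseudocount.

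Genes whose mean deposited value reached 1 were fitted with limma 3.58.1 (R 4.3.3) with a variance trend and no covariates. An exact two-sided permutation test of these groups cannot go below p = 0.1. Reads were recovered by fitting size factors and the strength of the pull until values became whole (91% within 0.1 of a whole number over 18323 genes that averaged 1 read or more, against 22.1% with the pull 10% off), rounded, scaled by TMM and fitted with limma-voom if they totalled 10 or more. In simulations with 200 changed genes, 200 were found on the deposited scale (16746 genes) and 199 on reads (17352 genes), with 4 other calls in each. The changes set were larger than those of most members. They were placed only in genes of low spread (deposited scale) or of many reads (reads). Changes like those of most members were thus not simulated. Transcript lengths and gene coordinates came from GENCODE M21.

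The members and lists were chosen with earlier results of these data known, the lists from general knowledge. Every member was named, every measured gene of pathway lists of up to 6 genes, and otherwise the 3 largest called changes of a pathway list in each direction. The size of a change was its deposited log2 fold change. Cell type markers were given as counts and sums, and those named, like target genes named by role, were picked after their values were seen. Alternatives were no filter, a mean of at least 5, a median shift, no variance trend, a replicate block, each library left out, recovered reads (TMM or library totals) and the longest transcript. The block and left-out libraries on reads, and targets without ATF4 genes, were chosen after seeing the data. Other steps used Python 3.11.15, numpy 2.4.6, pandas 2.3.3, scipy 1.17.1 and matplotlib 3.10.9.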

Additional observations from a re-analysis of the deposited data

How the results depend on the processing

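The count of members higher was 1 under every alternative run, and the count lower was 6 under all but 1 of them, with each library left out and with the replicate block included. At a mean of at least 5 it was 5, since the deposited values of *Mycn* lie below that filter and it was not tested. The counts of members past the DEG thresholds were 0 in each direction on the deposited scale and went to 1 higher and 1 lower on recovered reads, with TMM scaling, library totals or the replicate block. Leaving out 1 library at a time gave 0 to 1 in each direction over both scales, 0 on the deposited values and 1 on the reads. Of the wider network, 1 gene was higher and 1 lower at a mean of at least 5, and 1 was higher without a variance trend, while leaving out 1 library gave 1 to 2 higher. MYC turnover genes numbered 2 higher without a variance trend and 2 to 4 with a library left out, the 2 on deposited values being without Piezo1cKO replicate 3. Corepressor genes higher ran from 3 to 5 with a library left out. With a library left out, genes that had not been called also changed sign. The log2 fold change of *Mxd3* ran from -0.0006 to 0.07 on deposited values and from -0.02 to 0.17 on reads, with the lowest values without WT replicate 3. That of *Usf2* ran from -0.02 to 0.06 and from -0.09 to 0.18 (lowest without Piezo1cKO replicate 1), that of *Mga* from -0.004 to 0.08 and from -0.02 to 0.12 (lowest without WT replicate 2), and that of *Fbl* on reads from -0.0003 to 0.04 (lowest without Piezo1cKO replicate 3). MYC-activated genes lower ran from 46 to 49 with a library left out on deposited values and from 48 to 50 on reads.

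Samples of the same replicate number correlated at 0.07 to 0.20 in their deviations from the group means, and others at -0.17 to 0.03. All 6 libraries correlated best with their own number, a hint from the data and not from the design, and 1 pair was under 0.1, so the numbers were not taken to pair the samples. With the replicate block, calls over all genes went from 10556 to 11055. Low read numbers limit *Mycn*, *Mycl*, *Mlxipl*, *Pklr* and *Pvt1*, where the deposited scale understates the change and intervals cover counting error only. The cause of the other shifts was not tested.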
